A study of Caenorhabditis elegans with 12 samples.

Results

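Basic helix-loop-helix (bHLH) factors are transcription factors that bind DNA as pairs, and the genes of this family were examined for their place beside the sites of another transcription factor, ETS-5, in the nematode Caenorhabditis elegans. The genes were chosen by name from the protein-coding genes that RefSeq lists for the assembly WBcel235. They are all genes whose symbol begins with hlh, together with ngn-1, cnd-1, lin-32, aha-1, ahr-1, hif-1, cky-1 and sbp-1. This gave 33 of the 19971 protein-coding genes on the 6 nuclear chromosomes. The rule uses names and no measured value, though it was set with earlier results of these data known. Chromosome II and chromosome X held 7 of the genes each, chromosome IV held 6, chromosome III held 5, and chromosomes I and V held 4 each.

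bHLH proteins pair through their helix-loop-helix and bind a short DNA element, the E-box, through their basic part. Some of them, the proneural factors, turn precursor cells into neurons and mostly pair with a broadly present partner, which in the worm is HLH-2. Others carry a PAS domain and take part in the response to low oxygen or to small molecules, and others carry a leucine zipper and govern lipid synthesis, autophagy and lysosomes. ETS-5 belongs to the ETS family and is known for its role in the BAG neurons, head sensory neurons that detect respiratory gases.

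The study precipitated chromatin from whole-worm extracts with an antibody against green fluorescent protein and sequenced the DNA (ChIP-seq). Its 12 samples form 4 groups of 3, namely ETS-5 precipitates and ETS-5 inputs, both from the strain FQ237, whose ETS-5 carries that fluorescent protein according to the series title, and wild-type precipitates and wild-type inputs, both from N2. All worms were fed Escherichia coli OP50, and age, stage and sex are not in the labels. Whole-worm extract mixes all tissues, so a site used in a few cells and a site used weakly in many cannot be told apart. The data used here are the 3 lists of 400 bp windows of the ETS-5 precipitates, and replicates 1, 2 and 3 have 3811, 2915 and 3697 windows. The lists carry no counts, heights or p-values, so the depth behind a window is unknown. Neither the inputs nor the wild-type precipitates were analysed here, and no window was set against a control. A region at the tagged gene ets-5 was the first line of all 3 lists, and why it stood there was not tested.

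A window or region counted as near a gene when its centre lay between 2000 bp outside and 500 bp inside either end of the gene. A shared region is a stretch of overlapping windows that holds a window of all 3 replicates, and there were 1788 of them. Distances run from the centre of a window or region to the nearer end of the gene, so a window can overlap a gene that its centre lies outside. They join the coordinates of the lists, for which no genome build is named in the sources used here, with the gene table. As a check, regions were moved, and the share of shared regions inside genes was lowest unmoved, at 35.4%. It was 36.6% and 36.1% after 100 bp left and right, and 46.6% and 45.8% after 500 bp. The differences at 100 bp are small, so a match that fine was not established, and the shortest distances below depend on it. The table gives no strand, so the ends of a gene are called the low-coordinate and the high-coordinate end, and neither can be called the start.

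Of the 33 bHLH genes, 2 lay near a shared region, hlh-30 and hlh-33. That is 6.06%, against 7.44% of all 19971 protein-coding genes, so the family's share was near that of genes at large. Another 3 genes, hif-1, hlh-3 and hlh-29, lay near a window of some replicates but near no shared region. In the separate lists 3 bHLH genes lay near a window of replicate 1 (9.09% against 13.8% of all protein-coding genes), 3 near a window of replicate 2 (9.09% against 11.7%) and 4 near a window of replicate 3 (12.1% against 15.2%). The mean was 3.33 ± 0.577 bHLH genes per replicate (SD, n = 3), or 10.1% ± 1.75 of the family, against 13.6% ± 1.75 of all protein-coding genes. No more than 5 genes of the family lay near a window of at least 1 replicate (15.2% against 20.4%), and the other 28 lay near none. Of other transcription factor families, set beside it by symbol, 10.9% of the 64 homeobox genes named ceh and 5.20% of the 269 nuclear receptor genes named nhr lay near a shared region. No test was made of these shares, since neighbouring genes share windows and the genes are not replicates. The labels name no separate cultures for the 3 precipitates, and their spread may be technical only.

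**Figure D1:**
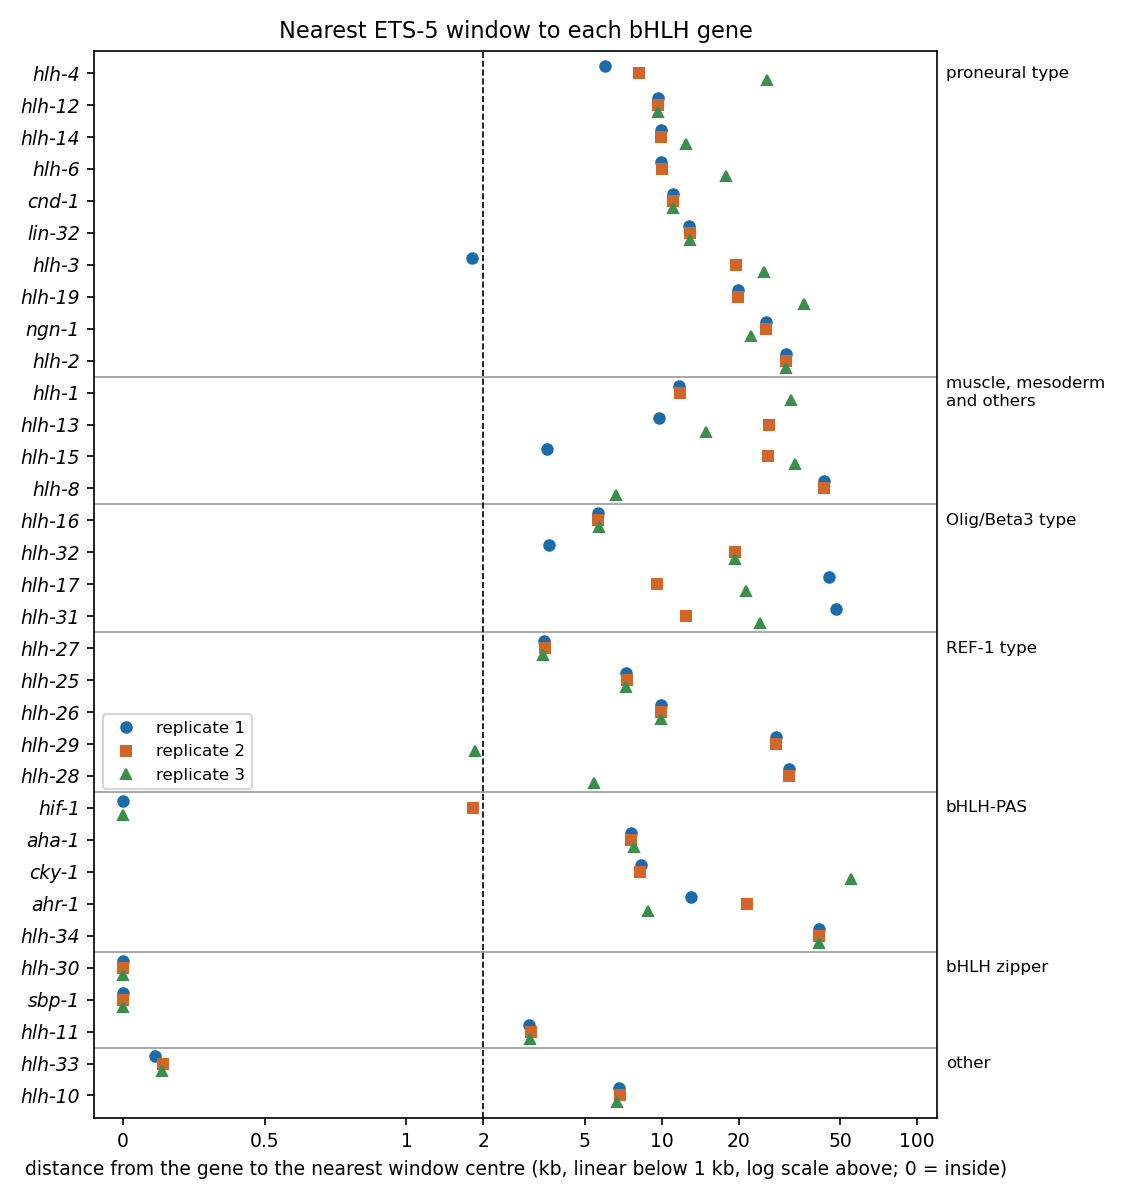
Distance in kb from each of the 33 bHLH genes to the nearest window centre of replicates 1, 2 and 3 of the ETS-5 precipitates, linear below 1 kb and logarithmic above, with 0 for a window inside the gene and a dashed line at 2000 bp. Genes are grouped by type, and hlh-30, sbp-1, hif-1 and hlh-33 have the windows closest to them in all 3 replicates.

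The zipper-type bHLH genes stood closest to the windows as a group of 3, with a window inside a gene counted as distance 0. Of these, hlh-30 and sbp-1 are the only bHLH genes of 10 kb or longer, and long genes hold a window more often. Closeness by type and by length can therefore not be told apart here. hlh-30 encodes the worm counterpart of TFEB, a factor that switches on genes of autophagy and lysosomes. A shared region on chromosome IV from 4034845 to 4035380 lay just beyond the high-coordinate end of hlh-30. Its windows had their centres 396 bp, 260 bp and 348 bp outside the gene in replicates 1, 2 and 3. They stood at line 2324, 1686 and 2962 of the lists, which is 61.0%, 57.8% and 80.1% of the way down. No other gene lay within 2000 bp of this region, the many small Piwi-interacting RNA genes left aside here and in what follows.

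hlh-30 also held windows inside its span of 19990 bp, which is the longest of the family. Replicate 1 had 4 inside windows, replicate 2 had 3 and replicate 3 had 2. They fell into 5 places, none of which was found in all 3 replicates. At 5194 bp, 16000 bp and 16823 bp from the low-coordinate end replicates 1 and 2 had a window and replicate 3 had none. At 13022 bp replicates 1 and 3 had a window and replicate 2 had none, and at 7876 bp replicate 3 had the only window. The regions at 5194 bp and 13022 bp overlapped the noncoding RNA genes W02C12.4 and F35F11.4, which lay 2 bp and 6 bp from their centres, and cannot be given to hlh-30 over those genes.

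sbp-1 encodes the worm counterpart of SREBP, which drives the synthesis of fatty acids. It lay near no window by the measure used, because all windows at the gene fell deeper than 500 bp inside it. Within its span of 14.2 kb replicate 1 had 4 windows, replicate 2 had 2 and replicate 3 had 3. Of the 5 places they formed, 2 were shared regions, and sbp-1 was the only bHLH gene with a shared region inside it (3.03% of the family, against 2.56% of all protein-coding genes). With it, 3 bHLH genes had a shared region anywhere inside or within 2000 bp (9.09% against 9.22%), and 6 had a window of at least 1 replicate there (18.2% against 23.8%). The first lay on chromosome III from 11431078 to 11431572, with centres 3006 bp, 2910 bp and 2964 bp from the low-coordinate end in replicates 1, 2 and 3. The second lay from 11433480 to 11433936, with centres at 5312 bp, 5332 bp and 5370 bp. No other gene lay within 2000 bp of either. Their lines were late ones, 2635, 2818 and 2296 for the first and 3401, 2081 and 2677 for the second. Replicate 1 had further windows at 4366 bp and 6464 bp, and replicate 3 had a further window at 1026 bp, so that all windows of sbp-1 lay on the low-coordinate side of its middle.

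**Figure D2:**
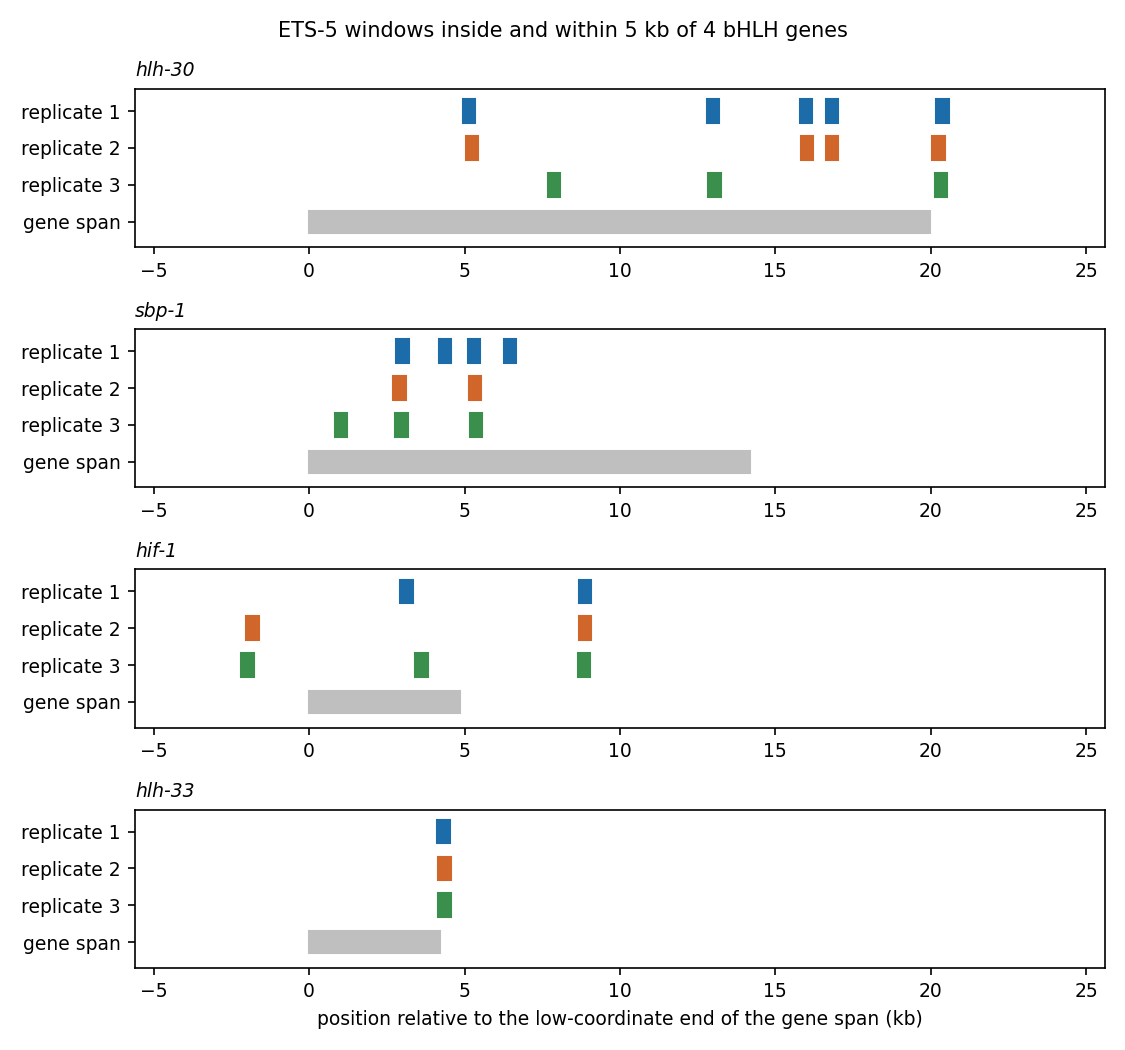
Windows (coloured blocks, 400 bp each, 1 row per replicate) at hlh-30, sbp-1, hif-1 and hlh-33, drawn to scale in kb from the low-coordinate end of each gene, whose span is the grey bar. Rows line up where replicates share a place, as at the high-coordinate end of hlh-30, at 2 places inside sbp-1, beyond the high-coordinate end of hif-1 and at hlh-33.

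The windows inside these genes were counted against the length of the gene. hlh-30 held 2.0, 1.5 and 1.0 windows per 10 kb in replicates 1, 2 and 3, and sbp-1 held 2.82, 1.41 and 2.11. All protein-coding genes together held 0.239, 0.159 and 0.219 windows per 10 kb of gene. Both genes thus held more windows per length than genes at large in every replicate, a description of 2 genes singled out after their values were seen. Long genes hold a window more often than short ones, and the density in genes of like length was not computed. Among genes from 10 kb to below 20 kb long, a limit also set afterwards, 1 of the 2 bHLH genes and 148 of all 759 protein-coding genes (19.5%) held a shared region inside. Among shorter genes it was 0 of 31 bHLH genes and 297 of 19019 protein-coding genes (1.56%). A window of at least 1 replicate lay inside both of the longer bHLH genes and 42.7% of the 759 longer protein-coding genes. Among the shorter ones it was 3.23% of bHLH genes and 5.09% of protein-coding genes.

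hlh-11, which encodes the counterpart of the vertebrate factor AP-4, had a window of every replicate farther out. The centres lay 3018 bp, 3072 bp and 3044 bp beyond its low-coordinate end in replicates 1, 2 and 3. This shared region on chromosome III, from 9618876 to 9619328, stood at line 825, 577 and 794, well ahead of those of hlh-30 and sbp-1. No gene lay within 2000 bp of it.

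hlh-33, a bHLH gene in none of the groups used here, had the closest windows of any bHLH gene among those with none inside. Their centres lay 114 bp, 140 bp and 140 bp beyond its high-coordinate end in replicates 1, 2 and 3, a spread of 27 bp. The shared region lay on chromosome III from 1859517 to 1859943, at line 2024, 1819 and 1054. Its centre lay between hlh-33 and ddp-1, 154 bp from ddp-1, and the region overlapped the ends of both, while ttc-7 lay 695 bp from the centre. The windows can therefore not be given to hlh-33 over ddp-1.

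Among the bHLH genes with a PAS domain, hif-1 had the most windows. HIF-1 is the oxygen-regulated factor that turns on genes under low oxygen, and it pairs with AHA-1. Replicates 2 and 3 had a window 1830 bp and 1988 bp beyond the low-coordinate end of hif-1, at line 2470 and 3422, in the last 20% of both lists and only just within the limit of 2000 bp. Replicate 1 had none there. Inside the gene replicate 1 had a window at line 3447, 1718 bp from the high-coordinate end, and replicate 3 had a window at line 3680, 1240 bp from that end. These did not overlap. A shared region from 20789054 to 20789490 on chromosome V lay farther out, with centres 4030 bp, 4028 bp and 3994 bp beyond the high-coordinate end, at line 1910, 862 and 1497. Its centre lay inside Y44A6D.1 and 224 bp from tpan-1, and was not counted for hif-1.

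The other PAS genes had no window within 5000 bp in any replicate. aha-1 encodes the common partner of the PAS factors, and its nearest windows lay 7.61 kb, 7.59 kb and 7.78 kb away in replicates 1, 2 and 3. For ahr-1, the aryl hydrocarbon receptor gene, they lay 12.97 kb, 21.6 kb and 8.86 kb away. For cky-1 the distances were 8.27 kb, 8.24 kb and 55.3 kb, and for hlh-34 they were 41.5 kb, 41.4 kb and 41.5 kb. Replicate 3 thus lacked the window that replicates 1 and 2 had beyond cky-1, while the 3 replicates had theirs at the same place beyond aha-1 and beyond hlh-34.

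The 10 genes called proneural here were grouped by type, with the partner hlh-2 added, and not by the cells each acts in. None of the 10 lay near a shared region, and 1 of them lay near any window, where 7.44% and 20.4% of all protein-coding genes did. With 10 genes these counts are close to what genes at large would give. That gene was hlh-3, of the achaete-scute type, which acts in neurons such as the egg-laying motor neurons. Replicate 1 had a window 1800 bp beyond its high-coordinate end, at line 2358, while the nearest windows of replicates 2 and 3 lay 19.6 kb and 25.1 kb away. The window overlapped the noncoding RNA genes C07H4.3, which held its centre, and C07H4.4, 16 bp from the centre. For the other 9 genes the nearest window in any replicate lay at least 5.97 kb away, the distance for hlh-4 in replicate 1.

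Several proneural genes had their nearest windows at the same place in every replicate, though far off. For cnd-1, the NeuroD gene, these lay 11.1 kb away in all 3 replicates. For lin-32, the atonal gene needed for touch neurons and male rays, they lay 12.8 kb, 12.9 kb and 12.9 kb away in replicates 1, 2 and 3. For hlh-12 they lay 9.65 kb, 9.64 kb and 9.65 kb away, and for hlh-2 they lay 30.8 kb, 30.8 kb and 30.7 kb away. ngn-1, the neurogenin gene, was not among these, with distances of 25.5 kb, 25.5 kb and 22.4 kb, the last at another place. Replicate 3 stood apart from the others at hlh-4, with 25.8 kb against 5.97 kb and 8.16 kb in replicates 1 and 2, at hlh-6, with 17.9 kb against 9.92 kb and 9.98 kb, and at hlh-19, with 36.2 kb against 19.9 kb and 19.8 kb. At hlh-14, an achaete-scute gene of neuroblast divisions, the distances were 9.97 kb, 9.96 kb and 12.4 kb.

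The REF-1 type genes, a family of Notch targets in the worm embryo, lie in clusters and so share their windows. hlh-25, hlh-26 and hlh-27 lie together on chromosome II. A shared region there, from 5543437 to 5543897, was their nearest one in every replicate. It lay 3462 bp, 3484 bp and 3424 bp beyond hlh-27 in replicates 1, 2 and 3. It stood at line 462, 329 and 22 and was the best placed of the shared regions within 5000 bp of a bHLH gene. The small nuclear RNA gene sls-2.2 holds its centre, and C17C3.23 has an end 28 bp from the centre. sls-2.3 lay 494 bp and C17C3.22 lay 504 bp from the centre. The region can therefore not be given to hlh-27 over those genes.

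hlh-28 and hlh-29 lie close together on chromosome X and have an equal span of 1148 bp. They are known as near-identical copies, and whether reads around them could be placed uniquely was not tested. Replicate 3 alone had windows beside hlh-29. Their centres lay 1854 bp and 3048 bp beyond its low-coordinate end, at line 294 and 57, both in the first 10% of the list. The nearest windows of replicates 1 and 2 lay 27.94 kb and 27.97 kb from hlh-29, so these places were in neither of the other lists. hlh-28 lay farther off, 5.42 kb from the nearest window of replicate 3 and 31.5 kb from those of replicates 1 and 2.

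The remaining groups held no gene near a window. hlh-1, the MyoD gene of body wall muscle, had its nearest windows 11.7 kb, 11.8 kb and 32.1 kb away in replicates 1, 2 and 3. hlh-8, the Twist gene of the mesoderm, had them 43.3 kb, 43.3 kb and 6.59 kb away. hlh-13 had them 9.73 kb, 26.2 kb and 14.9 kb away, and hlh-15 had a window of replicate 1 at 3568 bp, inside mtpn-1, with the others 26 kb and 33.4 kb away. Of the Olig and Beta3 types, hlh-16 had its nearest windows 5.62 kb, 5.63 kb and 5.68 kb away. hlh-17, a gene of glial cells, and its neighbour hlh-31 had theirs between 9.61 kb and 48.1 kb away. hlh-32 had a window of replicate 1 at 3606 bp, at line 3695 of 3811, and those of replicates 2 and 3 were 19.3 kb away. hlh-10 had its own 6.78 kb, 6.88 kb and 6.71 kb away.

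At wider distances the shares of the family lay on either side of those of all protein-coding genes. Counting gene interiors and 5000 bp on either side, 6 bHLH genes had a shared region (18.2%, against 16.2% of all protein-coding genes), and 10 had a window of at least 1 replicate (30.3% against 37.8%). Within 10 kb a shared region was found for 36.4% of bHLH genes and 26.9% of all protein-coding genes, and within 20 kb for 45.5% and 44.6%. The median distance to the nearest window was 10.3 kb ± 0.725 for bHLH genes and 13 kb ± 1.67 for all protein-coding genes (SD over 3 replicates). To the nearest shared region it was 25.5 kb for bHLH genes and 23.7 kb for all protein-coding genes, so the order of the 2 medians turned with the measure. For 13 of the 33 bHLH genes the nearest windows of the 3 replicates formed 1 region (39.4%, against 31.3% of all protein-coding genes).

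**Figure D3:**
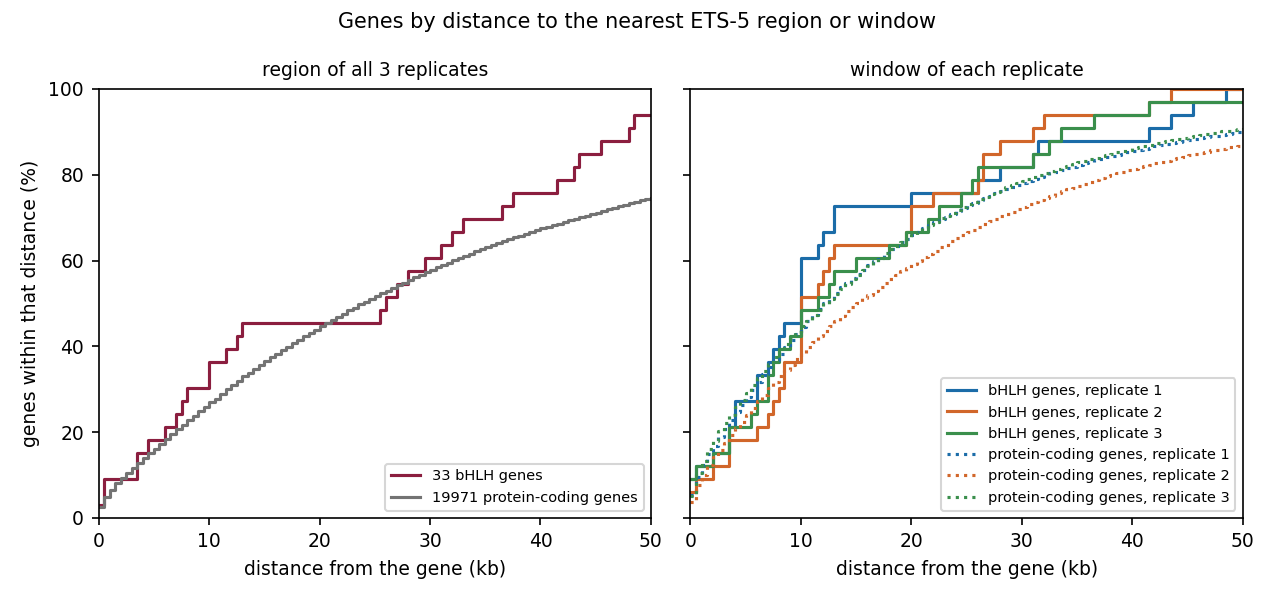
Share of the 33 bHLH genes and of all 19971 protein-coding genes (vertical axis, percent) whose nearest shared region (left) or nearest window of each replicate (right) lay inside the gene or within the distance on the horizontal axis, in kb. The curves of bHLH genes and of all genes cross in the left panel. There bHLH genes lie above at 5 kb (18.2% against 16.2%) and at 20 kb (45.5% against 44.6%). They lie below at 2 kb (9.09% against 9.22%) and at 23 kb (45.45% against 49.01%), and above again at 40 kb (75.8% against 67.5%) and at 50 kb (93.9% against 74.6%). In the right panel they lie below in all 3 replicates at 2 kb. At 10 kb they lie above, with 60.6%, 51.5% and 48.5% in replicates 1, 2 and 3 against 44.5%, 38.6% and 44.6%.

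Line order was compared as well, although no file says what it stands for. Averaged over the 3 lists, the shared region of hlh-33 stood 48.0% of the way down and that of hlh-30 stood 66.3% down, against a median of 36.2% for all shared regions. The regions inside sbp-1 stood 76.0% and 77.7% down, with 95.1% and 96.1% of all shared regions ahead of them. The region beyond hlh-27 stood 8.0% down, that beyond hlh-11 21.0% and that beyond hif-1 40.1%. The regions near or inside bHLH genes were thus later in the lists than the median, and the earlier ones lay beyond hlh-27 and hlh-11, outside the limit of 2000 bp.

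**Figure D4:**
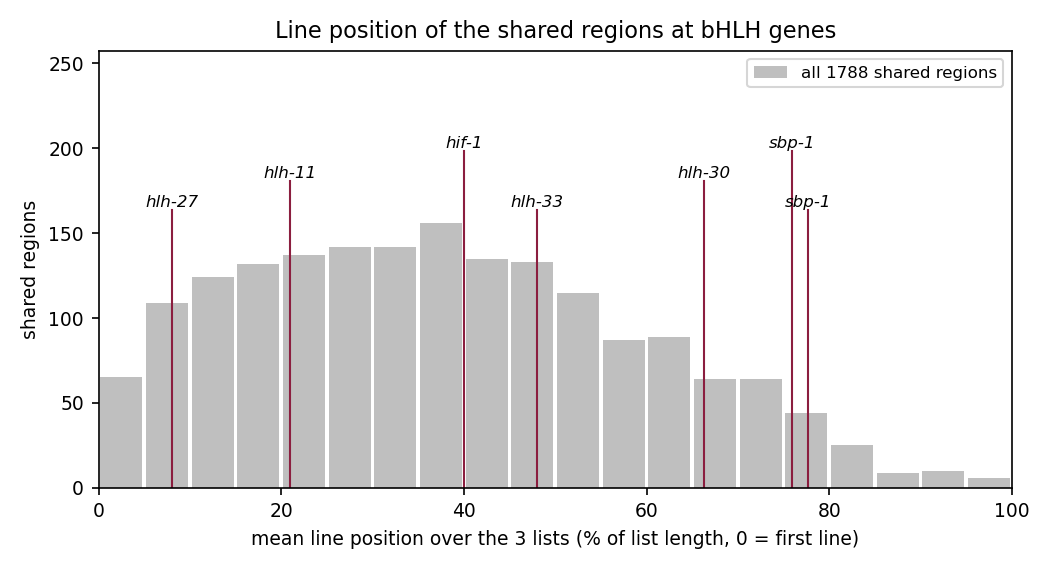
Number of shared regions (grey bars) by their mean line position in the 3 lists, in percent of the list length, with the shared regions inside or within 5000 bp of bHLH genes as labelled lines. The regions at hlh-30, hlh-33 and sbp-1 lie between 48.0% and 77.7%, later than the median of 36.2%, and those farther from hlh-27 and hlh-11 lie at 8.0% and 21.0%.

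Genes that work with these factors were taken from lists chosen by their known roles. Earlier results of these data were known when the lists were made, so the choice was not blind. Of 7 bHLH genes outside the naming rule, namely ref-1, lin-22, mxl-1, mxl-2, mxl-3, mdl-1 and mml-1, 0 lay near a shared region. mdl-1, which encodes a factor of the Mad type, had windows of every replicate near it, but at different places. Those of replicates 1 and 2 lay 552 bp and 560 bp beyond its low-coordinate end, and replicate 3 had a window 78 bp beyond the same end. Beyond the high-coordinate end replicate 3 had windows at 110 bp and 1224 bp, and replicate 1 had a window at 1752 bp. Except for the window at 78 bp, another gene lay closer, R03E9.9 on the low-coordinate side and R03E9.10 or R03E9.7 on the other. Of all protein-coding genes 7.62% had a window of every replicate near them, slightly more than had a shared region. mml-1 had a window in replicate 1 alone.

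Of 6 genes of the HIF-1 pathway, 2 lay near a shared region, egl-9 and swan-1. egl-9 encodes the prolyl hydroxylase that marks HIF-1 for destruction when oxygen is present. Its region had centres 1682 bp, 1746 bp and 1724 bp beyond the gene in replicates 1, 2 and 3, at line 910, 689 and 846, inside the noncoding RNA genes F22E12.9 and F22E12.10. swan-1 had windows 1538 bp, 1558 bp and 1444 bp away, at line 1159, 391 and 1362. cul-2 had a window in replicate 1 alone, and vhl-1, the gene of the ligase subunit that recognises HIF-1, had none near it, nor had rhy-1 and cysl-1.

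Of 8 genes of the SBP-1 pathway, 2 lay near a shared region, pod-2 and nhr-49. pod-2 encodes acetyl-CoA carboxylase, the first enzyme of fatty acid synthesis, and its windows lay 1846 bp, 1798 bp and 1874 bp away in replicates 1, 2 and 3. The centre of that region lay deep inside another gene, W09B6.4, and 75.4% of all shared regions stood ahead of it in line order. nhr-49, a nuclear receptor gene of fat use, had windows 408 bp, 346 bp and 456 bp away. The centre of that region was closer to K10C3.5, at 250 bp, than to nhr-49, at 404 bp, and 86.2% of all shared regions stood ahead of it. The desaturase genes fat-5, fat-6 and fat-7, the fatty acid synthase gene fasn-1, and mdt-15 and scp-1 had none near them.

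Of 9 genes tied to HLH-30, autophagy and lysosomes, 2 lay near a shared region. xpo-1, the gene of the exporter that carries HLH-30 out of the nucleus, had windows 798 bp, 856 bp and 832 bp away in replicates 1, 2 and 3, but the region overlapped uvs-1, 27 bp from its centre. lgg-2, an autophagy gene of the LC3 type, had windows 980 bp, 944 bp and 960 bp away, and that region overlapped dnc-1, 32 bp from its centre. Its relative lgg-1 had 3 windows near it in replicate 3 and none in replicates 1 and 2. A further region of replicates 1 and 3 alone lay 91 bp inside an end of lgg-2. let-363 had a window near it in replicate 3 alone and epg-5 in replicate 1 alone, while ragc-1, raga-1, bec-1 and atg-9 had none. Of 8 genes that work with the proneural factors, 0 lay near a shared region, though lag-1, the gene of the Notch pathway's DNA-binding factor, held a shared region deeper inside, at line 72, 36 and 570. Each of these lists is short, and none was tested against the 7.44% of all protein-coding genes.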

How the data were processed

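Per the labels' protocols, frozen ground worm lysates were cross-linked with formaldehyde, sonicated and precipitated with an antibody. The submitters' processing notes name Bowtie2 and MACS2 without versions or roles. The sources used here do not give the build, the threshold or the control. The authors deposited 1 list of window positions per ETS-5 precipitate, without any score, signal or other value. The other 9 samples were not analysed here. Depth is unknown, so no interval can be given.

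Groups came from the sample titles. Starts were taken to count from 0 and are printed from 1. Windows overlapping by at least 1 bp were merged, and centres were averaged within a region. Gene names and ends came from the RefSeq table of WBcel235. The share of shared regions inside genes was 35.4% as deposited, 36.6% and 36.1% after moving them 100 bp left and right, and 63.8% and 64.4% at 5000 bp. Overlaps equalled those of bedtools 2.31.1, and nearness was tested on simulated windows. Python 3.11.15 was used. The members and lists were chosen with earlier results of these data known. All genes of the family were named, by position of their windows. Planned counts of sequence motifs and distances from gene starts were not run, since no sequence or strand was used here. The 100 bp moves were added after seeing the data.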

Additional observations from a re-analysis of the deposited data

How the results depend on the processing

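The count of 2 bHLH genes near a shared region stayed at 2 or 3 in 11 of 13 other settings. It was 2 to 3 with each replicate left out. hif-1 was added when replicate 1 was left out or when 2 replicates sufficed, and sbp-1 when windows anywhere inside counted or when each region went to its nearest gene alone. With the first 50% of the lines the count was 0, so hlh-30 and hlh-33 rest on the later lines, and with 5000 bp outside it was 5, through hif-1, hlh-11 and hlh-27. The mean per replicate, 3.33 genes, became 0.667 with the first 50% of lines, 2 with 1000 bp outside and 0 bp inside, and 6.33 with 5000 bp outside. It was 3 to 3.5 with each replicate left out. The share of all protein-coding genes near a window of each replicate was not computed at these settings. The background for shared regions, 7.44% of all protein-coding genes, became 12.5% with regions of at least 2 replicates and 3.40% with the first 50% of lines. It became 4.25% with 1000 bp outside and 0 bp inside, and 14.6% with 5000 bp outside. Without replicates 1, 2 and 3 in turn it ranged between 8.32% and 9.81%. Distances from gene starts were not run. No paired analysis was possible because only the ETS-5 precipitates were analysed and no result comes from a test. A missing window says only that a list holds none there, since depth and threshold are unknown.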
